A study of Sus scrofa with 12 samples.

Results

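The mitochondrial genome encodes 6 proteins of respiratory chain complexes III and IV and of the ATP synthase (complex V), and the transcripts of these genes were followed in the left ventricle of obese pigs with pressure overload. The rule that picked the 6 genes used no measured value, but earlier results of these data were known. The 6 genes were taken by their Ensembl gene identifier out of 35670 genes in the deposited count table. They were COX1 (ENSSSCG00000018075), COX2 (ENSSSCG00000018078) and COX3 (ENSSSCG00000018082) of complex IV, ATP6 (ENSSSCG00000018081) and ATP8 (ENSSSCG00000018080) of complex V, and CYTB (ENSSSCG00000018094) of complex III. Of the 6 genes, 5 passed the filter on low counts that left 13476 genes for testing. ATP8 had no count in any animal.

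RNA was sequenced from hearts of 12 wild-type female Ossabaw pigs, a strain prone to obesity, in 3 groups of 4 animals with 1 library per animal. Chow control animals ate normal chow and had neither aortic banding nor vector. Both heart failure (HF) groups were fed a high-fat diet, begun at an age of 2 months, and underwent aortic banding, a surgical narrowing that raises the load on the left ventricle. HF saline animals were then given saline, and HF KBD animals were given 8e12 vector genomes per kg of AAV9sc.KBD intravenously. This adeno-associated virus vector carries the kinase binding domain (KBD) peptide of the anchoring protein AKAP6, and the submitters describe its expression as selective for cardiomyocytes. The heart failure hearts were taken 6 months after treatment. The labels give neither the age of the chow animals at collection nor a group that received an empty or unrelated vector. High-fat diet and banding were always given together and cannot be told apart, nor can the peptide and the virus that carried it. The comparisons ask whether the disease model, with or without the peptide, is accompanied by a different level of these transcripts.

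Cytochrome b, the product of CYTB, is the subunit of complex III that binds ubiquinol and passes its electrons on. COX1, COX2 and COX3 form the core of cytochrome c oxidase, which reduces oxygen, and ATP6 and ATP8 belong to the membrane part of the ATP synthase, through which protons return to the matrix. All are transcribed from the mitochondrial genome as parts of long precursor RNAs that are cut into shorter messengers. Overlapping genes such as ATP8 and ATP6 need not have separate messengers. Most of the other subunits of the same complexes are encoded in the nucleus. The working heart muscle is rich in mitochondria, and these transcripts are among its most abundant messengers.

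In RefSeq's annotation of Sscrofa11.1, the genes lie on the mitochondrial chromosome (MT) and are protein coding. COX1 spans MT:6511-8055, COX2 spans MT:8203-8890 and COX3 spans MT:9800-10583. ATP8 spans MT:8959-9162 and ATP6 spans MT:9120-9800, so that 43 bases belong to both genes. ATP6 shares 1 further base with COX3. CYTB, at MT:15342-16481, lies apart from the others. Because the strand setting and the treatment of overlapping genes are not given in the sources used here, the split of reads between ATP8, ATP6 and COX3 is uncertain.

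The total count per library lay between 7721638 (chow control replicate 1) and 12637958 (chow control replicate 3). The vector's own row held 242, 400, 269 and 712 counts in the 4 HF KBD animals and 0 counts in the other 8, as the labels have it. All 12 libraries carry the same batch label. Cardiac muscle markers were high in every library, with MYL2, the ventricular light chain of myosin, at 10909 to 16593 CPM. CPM here are counts per 1e6 of the counts of tested genes, scaled by the TMM method, which aligns the bulk of genes between libraries. In such bulk tissue, fewer cells of a type and less RNA per cell cannot be told apart.

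ATP8 was the exception among the 6 genes. It was listed with 0 counts in all 12 animals, and a count of 3 would have been 0.237 to 0.389 per 1e6 of all counts, depending on the library. Other short mitochondrial genes were counted: ND3, of 346 bases, had 3924 to 9733 counts per library, and ND4L, which overlaps ND4 and has 297 bases, had 25 to 57. The cause of the zeros was not tested, and no statement on ATP8 between groups is possible from these data.

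The other 5 were among the most abundant genes of the heart libraries. By mean CPM over the 12 animals, COX1 was rank 2, COX3 rank 4, CYTB rank 8, ATP6 rank 9 and COX2 rank 19 of the 13476 genes tested. Together the 6 genes took up 8.23% ± 0.740 (SD, n = 12) of a library. Levels of different genes were compared only after division by gene length. On the scale of CPM per kilobase of RefSeq gene length, COX3 stood at 26432 ± 3007 (SD, n = 12) and COX1 at 25421 ± 2526 (SD, n = 12). These neighbours were not separated by their spread, since COX3 exceeded COX1 in 7 of 12 animals. ATP6 followed at 12535 ± 1281 CPM per kilobase (SD, n = 12) and was below COX1 in all 12 animals. CYTB came next at 7855 ± 1064 CPM per kilobase (SD, n = 12), below ATP6 in all 12 animals. COX2 was lowest at 7280 ± 816 CPM per kilobase (SD, n = 12), below CYTB in 10 of 12 animals. COX2, the lowest of the 5, was still 1.61 ± 0.0798 times (SD, n = 12) ND4 on this scale, and ND4 was the highest of the mitochondrially encoded complex I subunits. Transcripts of cytochrome c oxidase thus held both ends of the order of the 5 genes. The libraries were poly(A)-selected, and how well each transcript was captured was not measured. The order is therefore one of counts per length in these libraries.

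COX1, the catalytic subunit of complex IV, measured 32894, 40252, 38150 and 34550 CPM in chow control replicates 1 to 4. It measured 41807, 39802, 39594 and 41826 CPM in the HF saline animals and 44591, 34033, 45025 and 38787 CPM in the HF KBD animals. The saline animals lay close together near the upper end of the chow range, 2 of them above every chow animal. The KBD animals spread over the ranges of both other groups. The group means were 36462 ± 3347 CPM in chow control, 40757 ± 1226 in HF saline and 40609 ± 5225 in HF KBD (SD, n = 4 each). The log2 fold change was 0.16 (SE 0.102, edgeR adjusted p = 0.575) for HF saline against chow control.

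COX2 carries the copper centre that takes electrons from cytochrome c. It measured 4002, 4915, 4867 and 4615 CPM in the chow animals. The saline animals measured 5503, 5592, 4783 and 5442 CPM, and the KBD animals 5399, 4207, 5818 and 4963 CPM. In each heart failure group 3 of 4 animals exceeded every chow animal, and the remaining animal of each group, HF saline replicate 3 and HF KBD replicate 2, lay inside or at the low end of the chow range. COX2 had the largest difference between HF saline and chow control among the 5 genes, with means of 5330 ± 370 and 4600 ± 420 CPM (SD, n = 4 each). That log2 fold change was 0.21 (SE 0.106, 95% interval -0.02 to 0.44) and did not pass the test (edgeR unadjusted p = 0.0653, adjusted p = 0.459).

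COX3, the remaining mitochondrially encoded subunit of complex IV, measured 17672, 23430, 20932 and 19305 CPM in chow control. The values were 23230, 20309, 19521 and 21204 CPM in HF saline, and 22446, 16667, 24399 and 19554 CPM in HF KBD. All 3 groups overlapped widely. Chow control replicate 2 was above every saline animal, and the lowest and the highest animal of the study were both in the KBD group. The means of 20335 ± 2456, 21066 ± 1598 and 20766 ± 3381 CPM (SD, n = 4 each) differed by less than any of these spreads.

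ATP6 forms, with a ring of nuclear-encoded subunits, the proton path of the ATP synthase. It measured 7167, 9474, 8291 and 8240 CPM in chow control, 9214, 8774, 8063 and 8921 CPM in HF saline, and 9403, 6948, 9651 and 8287 CPM in HF KBD. The saline values lay wholly inside the chow range, and the KBD values extended past it at both ends. The means were 8293 ± 942, 8743 ± 489 and 8572 ± 1235 CPM (SD, n = 4 each).

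CYTB, the only mitochondrially encoded subunit of complex III, measured 7200, 10175, 9277 and 8025 CPM in chow control. It measured 10079, 8671, 8545 and 8774 CPM in HF saline and 9301, 7535, 11524 and 8353 CPM in HF KBD. Here too every saline animal lay inside the chow range. CYTB varied most over the 12 animals, with the highest at 1.60 times the lowest, against 1.37 times for COX1, which varied least. The means were 8669 ± 1318, 9017 ± 714 and 9178 ± 1722 CPM (SD, n = 4 each).

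**Figure D1:**
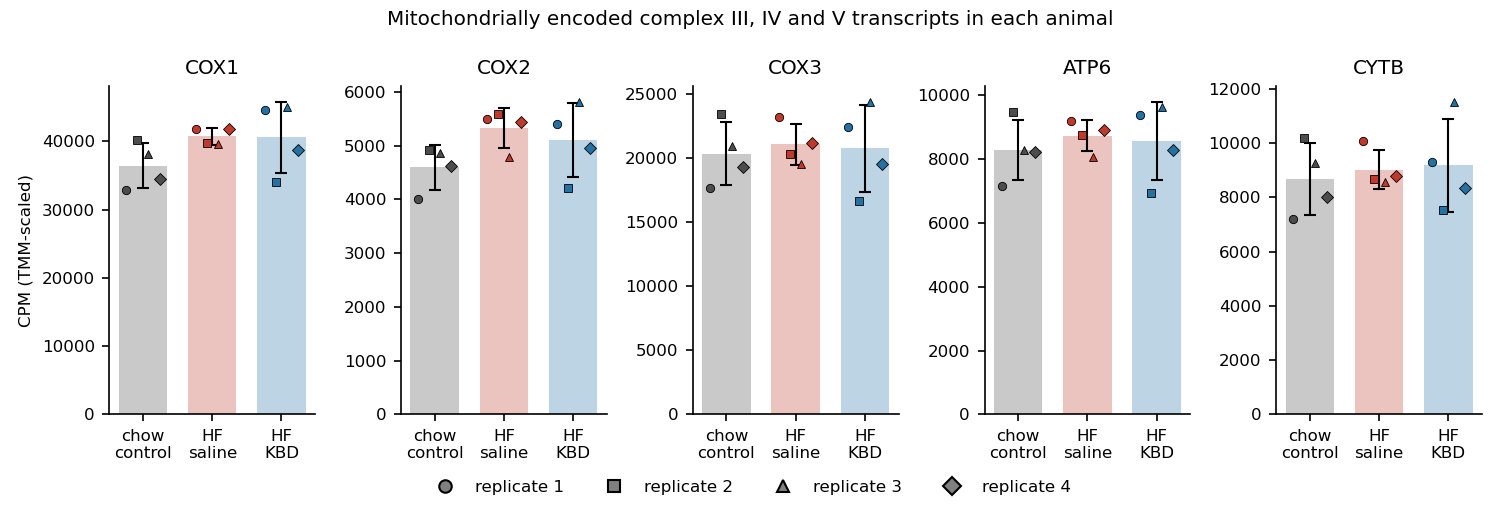
Level of COX1, COX2, COX3, ATP6 and CYTB in each of the 12 animals, on a vertical axis of TMM-scaled CPM that starts at 0, with bars for group means and error bars for the SD (n = 4); symbols mark the replicate number within a group and pair nothing. The groups overlap for all 5 genes, and for COX1 the HF saline animals sit between 39594 and 41826 CPM while the HF KBD animals reach from 34033 to 45025 CPM.

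None of the 5 genes passed the test in any comparison. Against chow control, 0 of 5 were called in HF saline at an adjusted p under 0.05, where 0.26% of all 13476 genes were called, and 0 of 5 reached an unadjusted p under 0.05, where 11.8% of all genes did. In HF KBD against chow control, 0 of 5 were called against 0.0519% of all genes, and 0 of 5 reached an unadjusted p under 0.05 against 12.5%. In HF KBD against HF saline, edgeR called 0 of 5 and 0% of all genes, and 0 of 5 reached an unadjusted p under 0.05 against 4.15% of all genes. For 0 of 5 genes did the animals of 2 groups separate completely. Among all genes this occurred in 6.67% for HF saline against chow control, 7.45% for HF KBD against chow control and 2.76% for HF KBD against HF saline. With so few calls in the whole table, a count of 0 in 5 genes lies near the background and sets them apart from nothing.

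All 5 genes had point estimates above 0 in both heart failure groups against chow control, and both comparisons use the same chow animals. In HF saline the log2 fold changes were 0.08 for ATP6 (SE 0.112), 0.06 for CYTB (SE 0.135) and 0.05 for COX3 (SE 0.122), beside 0.16 for COX1 and 0.21 for COX2. Their edgeR adjusted p-values lay between 0.459 and 0.917. In HF KBD the log2 fold changes were 0.16 for COX1, 0.15 for COX2, 0.08 for CYTB, 0.05 for ATP6 and 0.03 for COX3, with edgeR adjusted p-values from 0.549 to 0.945. The median of the 5 was 0.08 in each of these comparisons, and the median over all genes was 0.00 in each. The shared sign rested on single animals for 3 of the 5 genes. Without chow control replicate 1, COX3 was at -0.01 and CYTB at -0.02 in HF saline, and ATP6 was at -0.02 and COX3 at -0.03 in HF KBD. Without HF saline replicate 1, CYTB was at -0.0016 in HF saline. Without HF KBD replicate 3, ATP6 was at -0.01, COX3 at -0.06 and CYTB at -0.05 in HF KBD, and without HF KBD replicate 1 COX3 was at -0.01 there.

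The animals given the vector could not be told from those given saline at these genes. The log2 fold changes of HF KBD against HF saline were -0.01 for COX1, -0.06 for COX2, -0.02 for COX3, -0.03 for ATP6 and 0.03 for CYTB. The edgeR adjusted p was 0.9995 for each, with unadjusted p-values from 0.553 to 0.960. This does not show that the levels were equal: the 95% intervals of the 5 genes reached from 0.817-fold to 1.245-fold. For HF saline against chow control the intervals reached from 0.851-fold to 1.36-fold, and for HF KBD against chow control from 0.851-fold to 1.298-fold.

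**Figure D2:**
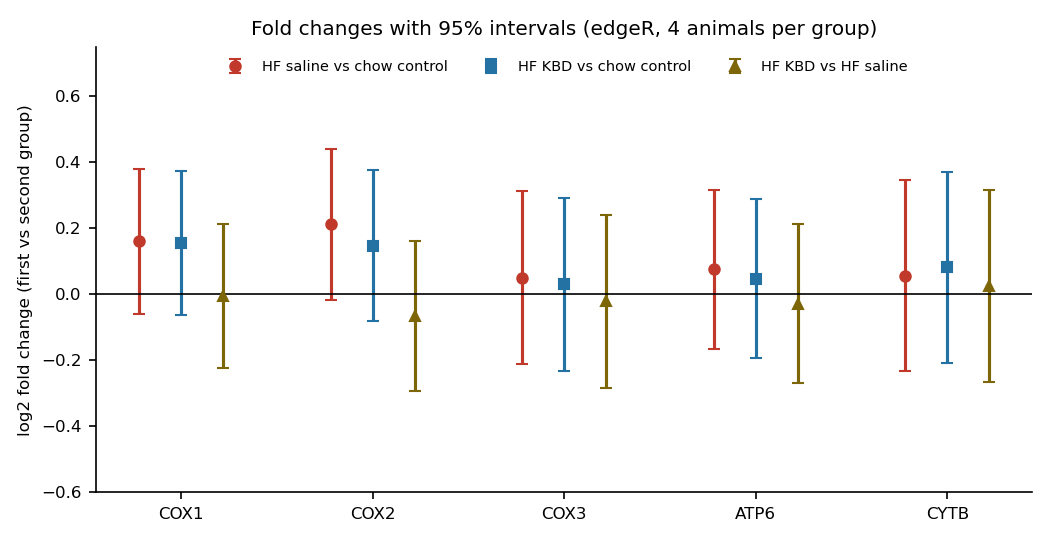
Log2 fold change (vertical axis) of the 5 counted genes in the 3 comparisons between groups of 4 animals, with edgeR 95% intervals as error bars and a horizontal line at 0. Every interval includes 0, and COX2 in HF saline against chow control comes closest to excluding it, at -0.02 to 0.44.

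Counting error contributed little to these intervals. The smallest count of any of the 5 genes in a library was 31356, for COX2, which corresponds to a counting error of 0.565% of the value. The spread between animals was larger, with a coefficient of variation of 3.01% to 7.92% in HF saline, 9.12% to 15.2% in chow control and 12.9% to 18.8% in HF KBD. The standard errors of the 5 genes, 0.102 to 0.135 on the log2 scale, were below the median of 0.171 over all genes.

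Much of the spread was common to the 5 genes, so that an animal low for one was low for the others. Chow control replicate 1 and HF KBD replicate 2 were the 2 lowest of the 12 animals for all 5 genes, with summed levels of 68935 and 69390 CPM. HF KBD replicate 3 was the highest for all 5, with a summed level of 96416 CPM. Across the 12 animals, Pearson's r of log2 CPM between pairs of the 5 genes lay between 0.792 (COX2 with CYTB) and 0.965 (ATP6 with COX3). These are descriptions over animals of 3 groups that share library preparation and scaling.

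The low animals differed in other respects. They were also the libraries with the smallest total counts, 7721638 for chow control replicate 1 and 9353331 for HF KBD replicate 2. HF KBD replicate 2 also had the lowest summed level of the 8 cardiomyocyte markers, 33351 CPM, where the other 11 animals had 37198 to 46613 CPM. Chow control replicate 1 was at 41297 CPM for these markers. Without HF KBD replicate 2 the log2 fold changes of HF KBD against chow control were 0.23 for COX1 (edgeR adjusted p = 0.409) and 0.23 for COX2 (edgeR adjusted p = 0.429), against 0.16 and 0.15 with it. The part of depth or of muscle content in these values was not tested.

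As a share of all counts, the 6 genes took up 6.99%, 8.62%, 7.93% and 7.61% in the chow animals. The share was 8.41%, 8.44%, 8.17% and 8.86% in HF saline, and 9.12%, 7.16%, 9.41% and 8.004% in HF KBD. The group means were 7.79% ± 0.674, 8.47% ± 0.289 and 8.43% ± 1.04 (SD, n = 4 each), and the groups overlapped. The 13 mitochondrially encoded protein genes together took up 9.45%, 10.3% and 10.3% on average. The 6 genes held a nearly fixed part of that total, 82.4% ± 0.458 in chow control, 82.3% ± 0.421 in HF saline and 82.1% ± 0.557 in HF KBD (SD, n = 4 each).

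Within the 6 genes, the balance between transcripts varied less than their levels. The gap was small in HF saline for COX1, with a coefficient of variation of 2.35% for the share and 3.01% for the level. For COX2 in HF saline these were 5.35% and 6.93%. COX1 made up 46.6% ± 0.895 of their counts in chow control, 48.0% ± 1.13 in HF saline and 48.3% ± 1.09 in HF KBD (SD, n = 4 each). COX2 made up 5.88% ± 0.257, 6.28% ± 0.336 and 6.06% ± 0.117 in the same order. ATP6 stood at 10.6%, 10.3% and 10.2%, and CYTB at 11.02%, 10.61% and 10.87%. Every share but that of COX3 overlapped in all 3 comparisons.

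The share of COX3 was 25.64%, 26.55%, 25.68% and 25.83% in the chow animals and 24.63%, 24.02%, 25.31% and 24.46% in the HF KBD animals. These groups did not overlap, which was the case for 1 of the 15 comparisons of a share between groups. In HF saline it was 25.86%, 24.43%, 24.25% and 24.61%, so that replicate 1 lay within the chow range and the other 3 below it. COX1 counts per COX3 count were 1.80 ± 0.0608 in chow control, 1.94 ± 0.0982 in HF saline and 1.96 ± 0.0838 in HF KBD (SD, n = 4 each), with overlapping groups. Among the 10 ratios between the 5 counted genes, 2 of 30 comparisons did not overlap. COX2 counts per ATP6 count were 0.519 to 0.587 in chow control, 0.593 to 0.637 in HF saline and 0.574 to 0.606 in HF KBD, apart for HF saline and chow control. COX1 counts per ATP6 count were 4.19 to 4.60 in chow control, 4.54 to 4.91 in HF saline and 4.67 to 4.90 in HF KBD, apart for HF KBD and chow control. Shares and ratios were not tested, and those that separate were noticed among the values and are given as a description.

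**Figure D3:**
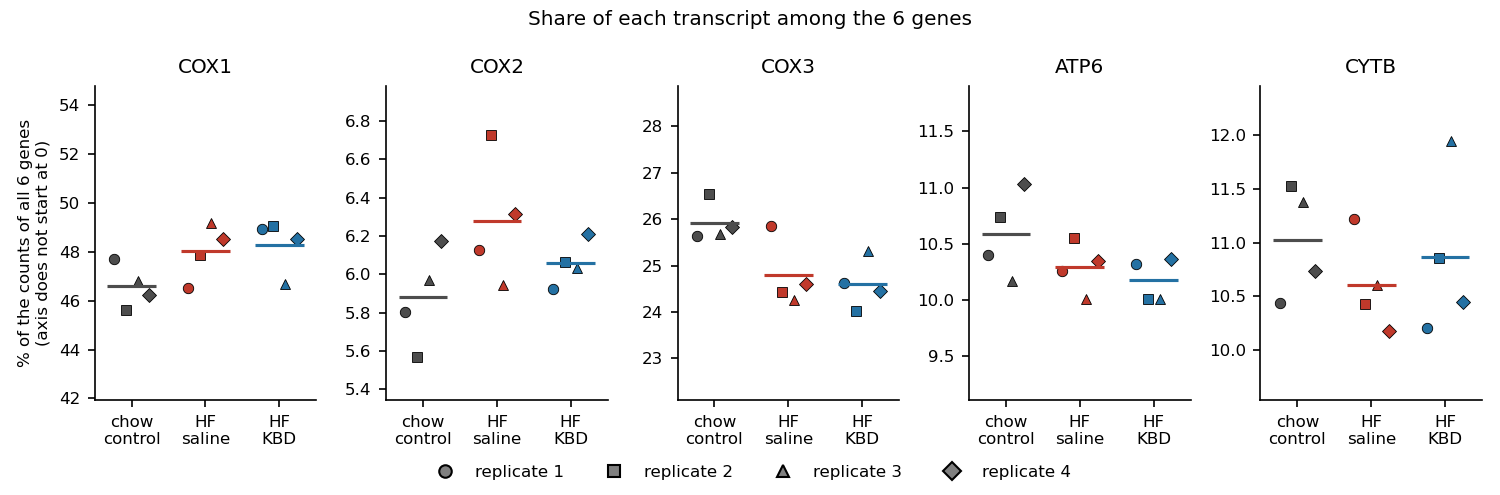
Share of each transcript among the counts of the 6 genes, in percent on vertical axes that do not start at 0, with 1 symbol per animal and a line for each group mean (n = 4). COX3 lies between 25.64% and 26.55% in chow control and between 24.02% and 25.31% in HF KBD, while the shares of the other 4 transcripts overlap between all groups.

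The 7 complex I subunits of the same genome gave the closest comparison. Of these, 0 of 7 passed the test in any comparison, with median log2 fold changes of 0.11 for HF saline and 0.10 for HF KBD against chow control. ND2, a membrane subunit of complex I, measured 1766 to 2196 CPM in the chow animals, 2348 to 2748 CPM in HF saline and 2328 to 2823 CPM in HF KBD, and neither heart failure group overlapped with chow control, as in 6.67% and 7.45% of all genes. ND2 was not tested against the 5 genes. Its log2 fold changes of 0.31 (edgeR adjusted p = 0.203) and 0.35 (edgeR adjusted p = 0.188) did not pass the test.

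Of the 5 genes whose levels were most alike over the 12 animals, 4 came from the same chromosome. Pearson's r with the mean log2 CPM of the 5 genes was 0.977 for ND4, 0.923 for ND5, 0.920 for ND3, 0.893 for the nuclear gene NRDE2 and 0.882 for ND1, the 5 highest among 8241 genes with a mean of at least 10 CPM. ND6, the only protein gene transcribed from the other strand of the mitochondrial genome, was at 0.843, rank 13. ND2 was at 0.635, rank 265. The animals share library preparation and scaling, and no significance is attached to these correlations.

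The nuclear partners of these proteins were also without a call. Of the nuclear subunits, 8 of 9 could be matched and tested for complex III, 12 of 14 for complex IV and 13 of 18 for complex V, and 0 passed the test in any comparison. CYC1, the cytochrome c1 subunit of complex III, measured 1039 ± 15.7 CPM in chow control, 1000 ± 45.4 in HF saline and 915 ± 123 in HF KBD (SD, n = 4 each). Its log2 fold change for HF KBD against chow control was -0.18 (edgeR adjusted p = 0.426). COX6A2, the heart and muscle form of a small complex IV subunit, measured 288 ± 7.81, 269 ± 16.1 and 253 ± 35.6 CPM in that order (SD, n = 4 each), a log2 fold change of -0.18 for HF KBD against chow control (edgeR adjusted p = 0.432). ATP5IF1, the inhibitor protein of the ATP synthase, had a log2 fold change of -0.14 for HF saline against chow control (edgeR adjusted p = 0.659). Other subunits had estimates above 0. COX6A1 of complex IV was at 0.10 in HF saline (edgeR adjusted p = 0.656) and 0.11 in HF KBD (edgeR adjusted p = 0.597) against chow control. ATP5PO of complex V was at 0.14 in HF saline (edgeR adjusted p = 0.702). For HF saline against chow control, 4 of 8, 5 of 12 and 6 of 13 subunits of complexes III, IV and V were above 0.

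In HF KBD against chow control the nuclear subunits had medians of -0.06 for complex III, -0.06 for complex IV and -0.07 for complex V, and 1 of 8, 3 of 12 and 1 of 13 were above 0. The 5 mitochondrially encoded genes of complexes III to V had a median of 0.08, and the median over all genes was 0.00. Without HF KBD replicate 3 the point estimates of ATP6, COX3 and CYTB were below 0, at -0.01, -0.06 and -0.05. HF KBD replicate 2 was the lowest animal for the summed nuclear subunits of each complex, at 3647, 3605 and 7066 CPM. In HF saline against chow control the nuclear medians were 0.00, -0.05 and 0.00. In HF KBD against HF saline they were -0.05, -0.03 and -0.03, beside -0.02 for the mitochondrially encoded genes. The difference between the mitochondrial and the nuclear subunits was not tested.

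**Figure D4:**
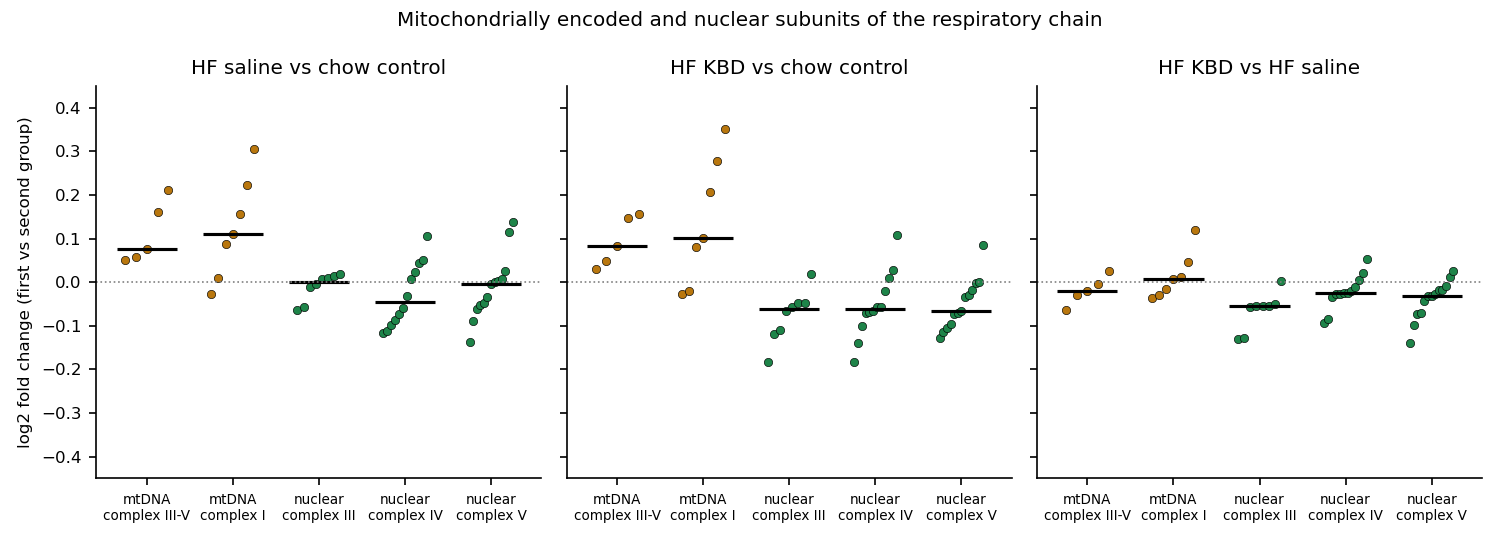
Log2 fold changes (vertical axis) of mitochondrially encoded (mtDNA, orange) and nuclear (green) respiratory chain subunits in the 3 comparisons, with 1 point per gene and a line at the median of each list. In HF KBD against chow control the median is 0.08 for the 5 mitochondrially encoded genes of complexes III to V and -0.06, -0.06 and -0.07 for the nuclear subunits of complexes III, IV and V, and no gene shown passed the test.

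Genes that make, process or assemble these proteins gave 0 calls too. A list of 30 assembly factors was drawn up for complexes III, IV and V, and 27 were tested. The list also held TIMMDC1, which belongs to the assembly of complex I. COA4, a twin CX9C protein linked to complex IV assembly, measured 3.43 ± 2.17 CPM in chow control, 10.9 ± 4.10 in HF saline and 12.45 ± 4.56 in HF KBD (SD, n = 4 each). Its log2 fold changes against chow control were 1.65 (edgeR adjusted p = 0.168) and 1.85 (edgeR adjusted p = 0.1598), at a low level with a wide spread. COA3, which promotes the translation and stability of COX1, measured 87.7 ± 10.5, 105.5 ± 3.93 and 104.7 ± 14.4 CPM in that order (SD, n = 4 each), log2 fold changes of 0.27 (edgeR adjusted p = 0.342) and 0.26 (edgeR adjusted p = 0.344).

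Among 30 genes of mitochondrial DNA transcription, RNA processing and translation, 0 passed the test in any comparison. MTERF1, a protein that binds mitochondrial DNA and ends transcription, had a log2 fold change of 0.47 for HF saline against chow control (edgeR adjusted p = 0.199). FASTK, a mitochondrial RNA-binding protein, had one of -0.26 for HF KBD against chow control (edgeR adjusted p = 0.253). In that comparison ELAC2 was at 0.42 (edgeR adjusted p = 0.2975) and MTERF1 at 0.33 (edgeR adjusted p = 0.3545). Against chow control, 21 of these 30 genes were above 0 in HF saline and 20 of 30 in HF KBD. Their medians were 0.07 and 0.06, beside -0.002 over all genes in each comparison. Among 13 regulators of mitochondrial biogenesis, 0 passed the test. PPARGC1A, the coactivator PGC-1alpha that drives transcription of mitochondrial genes, measured 76.8 ± 15.2 CPM in chow control, 58.9 ± 8.46 in HF saline and 56.6 ± 5.42 in HF KBD (SD, n = 4 each). Its log2 fold changes of -0.38 (edgeR adjusted p = 0.301) and -0.44 (edgeR adjusted p = 0.242) did not pass the test. Other regulators went the other way. SIRT3 had log2 fold changes of 0.39 in HF saline (edgeR adjusted p = 0.399) and 0.29 in HF KBD (edgeR adjusted p = 0.495) against chow control. SIRT1 had one of 0.33 in HF KBD against chow control (edgeR adjusted p = 0.242). In each comparison with chow control 6 of 13 regulators were above 0, with medians of -0.01 in HF saline and -0.02 in HF KBD.

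The tissue makeup by marker genes is given beside these values because mitochondrial transcripts are concentrated in muscle cells. The 8 cardiomyocyte markers tested, of 9 chosen, summed to 41147 ± 858 CPM in chow control, 40286 ± 4275 in HF saline and 37773 ± 3175 in HF KBD (SD, n = 4 each), and 0 passed the test. At an unadjusted p under 0.05, 1 of 8 was lower in each comparison with chow control. Of all genes, 11.8% were under this mark in HF saline against chow control and 12.5% in HF KBD against chow control. In HF KBD against HF saline the share was 4.15%. The 6 fibroblast markers summed to 2031 ± 408, 1416 ± 202 and 1654 ± 182 CPM in that order, with ranges of 1539 to 2538, 1202 to 1689 and 1490 to 1866 CPM. At the same mark, 5 of 6 were lower in HF saline and 1 of 6 was lower in HF KBD than in chow control. In HF KBD against HF saline, 3 of 6 were higher. The 5 smooth muscle and pericyte markers summed to 386 to 504 CPM in chow control, 300 to 357 CPM in HF saline and 375 to 533 CPM in HF KBD. Of these, 4 of 5 were lower in HF saline than in chow control at an unadjusted p under 0.05. In HF KBD against HF saline, 4 of 5 were higher at that mark. The fat cell gene FABP4, which endothelium also expresses, lay at 41.7 to 74.4 CPM in chow control, 87.0 to 130 CPM in HF saline and 85.9 to 145 CPM in HF KBD. FABP4 was higher in both heart failure groups than in chow control at an unadjusted p under 0.05. The 3 lymphocyte markers tested summed to 8.93 to 12.7 CPM in chow control, 12.7 to 28.3 CPM in HF saline and 8.49 to 12.3 CPM in HF KBD. Most of these lymphocyte sums was 1 gene, PTPRC, with means of 9.305, 14.1 and 8.95 CPM in the same order. CD3E lay at 0.08 to 2.02 CPM over all animals, a low level. HF saline replicates 1 to 4 had sums of 12.7, 13.2, 28.3 and 25.3 CPM. All 3 lymphocyte markers had an unadjusted p under 0.05 in both comparisons with HF saline, against 11.8% and 4.15% of all genes. The 3 atrial myocyte markers tested summed to 314 ± 116, 170 ± 109 and 133 ± 54.4 CPM (SD, n = 4 each). Most of these sums was 1 gene, NPPA, with means of 295.5, 159.1 and 125.8 CPM in the same order. The sums thus follow NPPA and are not read as an amount of atrial tissue. SLN, another gene of the list, had means of 6.19, 6.81 and 5.85 CPM. For HF KBD against chow control 2 of 3 were under 0.05 before adjustment, against 12.5% of all genes. The defining fat cell markers ADIPOQ, PLIN1 and LEP did not pass the filter on low counts. In the order chow control, HF saline and HF KBD, 4 endothelial markers summed to 464 ± 7.29, 500 ± 54.3 and 494 ± 29.1 CPM (SD, n = 4 each). Macrophage markers summed to 152 ± 22.9, 139 ± 48.2 and 115 ± 21.4 CPM. Of these 5, 2 were above 0 in HF saline against chow control, and 0 in HF KBD against either group. Erythrocyte markers summed to 141 ± 102, 130 ± 64.2 and 146 ± 46.9 CPM, and nerve markers to 4.775 ± 1.86, 4.91 ± 1.54 and 7.76 ± 2.295 CPM. No marker of these lists passed the test, and the part of cell makeup in the values of the 6 genes was not tested.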

How the data were processed

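Poly(A)-selected RNA of 12 hearts was sequenced, 1 library per animal. The authors deposited 1 table of expected counts per gene, 1 column per animal, not scaled for depth. Per the submitters' processing notes, STAR 2.7.10a, RSEM 1.3.1 and the Sscrofa11.1 build were used. The annotation release and strand setting are not given in the sources used here. Of the gene values, 4.54% were not whole (tolerance 1e-09), and 0 of the 72 values of the 6 genes. No column was left unassigned, and the vector's row was kept out of library totals used for scaling and out of tests.

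Expected counts were rounded. Genes were kept with filterByExpr (minimum count 10, minimum total 15), scaled by TMM and tested in R 4.3.3 with the quasi-likelihood F-test of edgeR 4.0.16 in 1 model of all 12 animals with 3 group means. P-values were adjusted over 13476 genes by the Benjamini-Hochberg method, and a gene was called at an adjusted p under 0.05. The standard error is the absolute log2 fold change over the root of the F statistic, and 95% intervals use the t quantile. Fits were tested on simulated data. Alternatives were limma 3.58.1 voom, the DESeq2 1.42.0 Wald test, DESeq2 size factors, no filter, unrounded counts, only the 2 groups compared, mitochondrially encoded genes left out of scaling, and leaving out each animal.

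Symbols came from a gene name table that matched 15623 of 35670 identifiers; of 169 list symbols, 154 matched once and 15 did not match. Positions and lengths are RefSeq's for Sscrofa11.1. The 6 genes and all lists were chosen with earlier results of these data known. All 6 genes are described; from other lists only the 3 genes with the smallest p-values per comparison, and the 5 genes with the highest correlation, could be named; the marker genes MYL2, FABP4, ADIPOQ, PLIN1 and LEP and the genes ND3, ND4L and ND6 were named after their values were seen. Counting errors and floors cover counting only. Nothing says that animals of a group were littermates or housed together, and p-values measure the spread between these animals.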

Additional observations from a re-analysis of the deposited data

Results flagged for a closer look

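CYTB in HF saline was the only case marked among 66 checks, of the highest and of the lowest animal in each group of 4, over levels and shares. Replicate 1 measured 10079 CPM, and the other 3 lay between 8545 and 8774 CPM. The gap to the nearest animal was 0.851 of the group's range, above Dixon's 95% critical value for groups of 4. Chance marks about 1 in 20 groups, so 1 mark among this many checks is not more than chance alone would give. The log2 fold change of CYTB in HF saline against chow control was 0.06 with this animal (edgeR adjusted p = 0.917) and -0.0016 without it (edgeR adjusted p = 0.998).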

How the results depend on the processing

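Under each of 19 alternatives per comparison, 0 of the 5 genes tested were called, and the smallest adjusted p of any of them was 0.367 (COX2, HF saline against chow control). An unadjusted p under 0.05 was reached by 1 gene in HF saline against chow control, COX2, in 3 alternatives: only the 2 groups compared (edgeR adjusted p = 0.436), without HF saline replicate 3 (0.459) and without HF KBD replicate 2 (0.367). It was reached by 2 genes, COX1 and COX2, in HF KBD against chow control without HF KBD replicate 2 (edgeR adjusted p = 0.409 and 0.429). COX1 and COX2 kept point estimates above 0 against chow control in all 19, from 0.11 to 0.21 and 0.15 to 0.26 for HF saline, and from 0.10 to 0.23 and 0.08 to 0.23 for HF KBD. The sign of ATP6 (HF KBD only), COX3 and CYTB against chow control changed when chow control replicate 1, HF saline replicate 1, HF KBD replicate 1 or HF KBD replicate 3 was left out, and every gene changed sign in HF KBD against HF saline when 1 animal was left out. With counts outside the 13 mitochondrially encoded genes as the denominator, the share of the 6 genes was 8.61% in chow control and 9.44% in HF saline, higher by construction than 7.79% and 8.47%. Leaving out each animal in turn gave shares of 7.51% to 8.05% in chow control, 8.34% to 8.57% in HF saline and 8.10% to 8.85% in HF KBD. No paired analysis was possible because the replicate numbers were given in accession order and name animals only. With 4 animals per group, differences within the 95% intervals, up to 1.36-fold, could not be resolved. Counting error was at most 0.565% of a value for the 5 counted genes; the relation of their levels to library depth was not tested.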
